A study of Oryza sativa with 12 samples.

Results

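The genes described here are the rice RNA helicase (*RH*) and CCCH zinc finger (*C3H*) genes, taken as all genes whose symbol or synonym, with or without the prefix Os, is *RH* or *C3H* followed by a number. The annotation used here gave such a name to 60 genes (7 *RH* and 53 *C3H*). Of these, 40 were read by at least 1 row of the array table that was paired with a single gene, namely 2 *RH* genes and 38 *C3H* genes, out of 15140 genes with such a row in the whole table. The rule itself uses names and no measured value, although the families were picked for description with earlier results of these data known. The row with the highest mean over the 12 arrays stood for a gene with several rows.

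RNA helicases of the DEAD-box group unwind or remodel RNA with the energy of ATP, and act in splicing, export, translation and decay of mRNA. The best known plant member among those measured, eIF4A-III, clamps onto spliced mRNA as the core of the exon junction complex, together with the partner proteins MAGO and Y14. CCCH zinc finger proteins carry short zinc-binding motifs with 3 cysteines and 1 histidine, which in many members bind RNA. In plants some of them regulate mRNA stability and translation, others are splicing factors, and several rice members are known from senescence, flowering, plant architecture, drought and disease.

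All arrays came from shoot apices, containing the SAM and leaf primordia, of rice seedlings that carried *pACT1-GVG>OsWOX4:RNAi*. In this line a rice *ACT1* promoter drives GVG, a transcription factor that DEX (dexamethasone) activates, and GVG then switches on an RNAi construct against *OsWOX4*. Seedlings grown for 5 days were cultured with 10 µM DEX for 3 h, with mock solution for 3 h, with DEX for 12 h or with mock solution for 12 h, and each of these 4 groups had 3 arrays of biological replicates. The transgene was present in every group. Wild-type plants given DEX were not analysed here, and in these arrays what DEX or GVG do by themselves cannot be told apart from what the RNAi does. The authors saw no abnormality in wild-type plants given DEX for 5 days from germination, an observation of growth and not of transcripts.

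The array medians lay between 5.64 and 5.66 (log2 signal) in the DEX arrays of 12 h and between 5.72 and 5.74 in mock arrays of that time. The upper quartiles differed more, at 7.15 to 7.24 in these DEX arrays and 7.38 to 7.4 in these mock arrays. Small falls of bright rows at 12 h therefore depend on the scaling, and values that moved under quantile normalization are given below. Replicates correlated at 0.982 to 0.99 over all rows. The *OsWOX4* row was higher with DEX (364, 389 and 432 in DEX at 12 h against 134, 149 and 125 in mock), and as it may also read the RNAi transcript it does not check the labels. Markers of the sampled tissue were looked up, and several marker lists differed at 12 h. The 3 meristem markers with a row, the *KNOX* genes *OSH1*, *OSH15* and *OSH71*, all fell, and their summed signal was 224 to 237 in DEX arrays and 338 to 451 in mock arrays. Of 6 markers of leaf primordia, 2 rose and 4 fell (summed signal 2946 to 3208 in DEX, 1834 to 1979 in mock). The higher sum came from the 2 that rose. The 3 chlorophyll-binding protein genes of green leaf all fell (144 to 207 in DEX, 2475 to 2571 in mock). For root, *QHB* rose and *SCR* fell (summed signal 206 to 318 in DEX, 36.5 to 43.8 in mock), and the higher sum came from *QHB*. Over all genes, 22.8% were higher and 32.4% lower at 12 h by the test described below. Signals on this scale cannot be 0, and some were low, such as those of *CAB1R* (6.57 to 36.6 over the 12 arrays) and *SCR* (9.44 to 25.9). Whether such markers were expressed was not tested. At 12 h these markers changed in the same arrays as the members described next, some up and some down, and their part in those results was not tested. In such bulk tissue, fewer cells of a type and less RNA per cell cannot be told apart.

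Of the *RH* genes, *EIF4A3A* and *RH3* had a usable row, and they went opposite ways after 12 h of DEX. *EIF4A3A* (also named *RH2*; chromosome 1) encodes eIF4A-III. Its signal was 343, 344 and 357 in the DEX arrays of 12 h and 477, 437 and 471 in the mock arrays of 12 h. All 3 DEX arrays lay below all 3 mock arrays. Signals are given on the linear scale, and each comparison between groups is a difference of mean log2 signals (log2 fold change) fitted in limma over all rows, with Benjamini-Hochberg adjusted p-values and an adjusted p under 0.05 as the limit. *EIF4A3A* fell by 0.41 on the log2 scale (SE 0.08, adjusted p = 0.00191), which is 1.33-fold lower. At 3 h its signal was 435, 457 and 448 with DEX and 418, 402 and 446 with mock, and these groups overlapped (log2 fold change 0.08, SE 0.08, adjusted p = 1). A second gene for the same protein, *EIF4A3B* (*RH34*), had no row of its own, and whether the *EIF4A3A* row also reads it was not tested.

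The gene labelled *RH3* (LOC4324051, chromosome 1) gave a signal of 93.1, 70.1 and 132 in the DEX arrays of 12 h, against 11.7, 12.6 and 14.1 in the mock arrays of 12 h. The lowest DEX array was well above the highest mock array. The log2 fold change, 2.90 (SE 0.19, adjusted p = 3.91e-07), or 7.45-fold, was the largest among the 40 genes. The row was dim, at percentile 24.4 of the mean signal of all rows, so the size of this change rests on low mock signals. At 3 h *RH3* gave 15.1, 15.2 and 13.7 with DEX and 10.9, 13.6 and 13.5 with mock. The groups were just apart at 3 h, but the difference did not pass the test (0.22, SE 0.19, adjusted p = 1). The annotated span of this gene was 571 bases, shorter than the conserved core of a DEAD-box helicase needs, so it is called here by its label and not by a helicase function. The other *RH* names (*RH1*, *RH10* or *TOGR1*, *RH17*, *RH34* and a second gene named *RH2*) had no row paired with them alone, so the *RH* family is represented by 2 genes with doubtful membership for 1 of them.

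The partners of *EIF4A3A* in the exon junction complex and other factors of RNA metabolism were looked up as small lists of genes with a row. Of the 4 *MAGO* and *Y14* genes, 3 fell at 12 h and none rose, with a median log2 fold change of -0.38. Among all genes 32.4% were called lower, with a median of -0.06, and 4 genes are too few to be read as a group. *MAGO1* gave 28.5, 27.2 and 33.9 with DEX and 44.8, 42.6 and 54.4 with mock at 12 h (-0.66, SE 0.19, adjusted p = 0.0141). *Y14b* fell (-0.46, SE 0.14, adjusted p = 0.0196), as did *Y14a* (-0.29, SE 0.11, adjusted p = 0.0491), whereas *MAGO2* gave 351, 322 and 406 with DEX and 357, 359.6 and 369.7 with mock (-0.02, SE 0.11, adjusted p = 0.924). For *MAGO2* the DEX arrays surrounded the mock arrays. Quantile normalization left *Y14a* at -0.09 (adjusted p = 0.533), and leaving out single arrays took the *Y14a*, *Y14b* or *MAGO1* calls past the limit, as listed in the closing section.

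Of 5 splicing factors, 4 fell and none rose at 12 h (median -0.52). They were *SC34* (an SR protein, -0.68), *PRP19* (-0.65) and *U2AF65B* and *U2AF65A* (-0.52 and -0.43), which encode the large subunit of U2AF, the factor that recognizes the 3′ splice site. *RSZ23* was not called (-0.22, adjusted p = 0.115). Of 5 translation initiation factors, 4 fell and none rose (median -0.39), namely *eIF3k* (-0.59), *eIF-4E-1* (-0.46) and the helicases *eIF-4A-1* (-0.39) and *eIF-4A-3* (-0.30), and *eIF-4G* was not called (-0.19, adjusted p = 0.112). The rows of *eIF-4A-1* and *eIF-4A-3* may share signal, since the genes are close copies, and under quantile normalization *eIF-4A-3* was not called (-0.17, adjusted p = 0.18) and *eIF-4A-1* was at -0.25 (adjusted p = 0.028). The cap-binding protein gene *CBP80* gave 600.5, 553 and 647 with DEX and 1107, 1122 and 1147 with mock at 12 h, a fall of 0.91 on the log2 scale (SE 0.09, adjusted p = 7.51e-06), and *RBP* was not called (-0.04, adjusted p = 0.913). None of these 16 genes was called at 3 h, when only 0.522% of all genes were called. Across all genes, 32.4% were called lower at 12 h and the median log2 fold change was -0.06, and these lists are too short to be read as groups. The plot of these genes at 12 h sets *EIF4A3A* beside them.

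**Figure D1:**
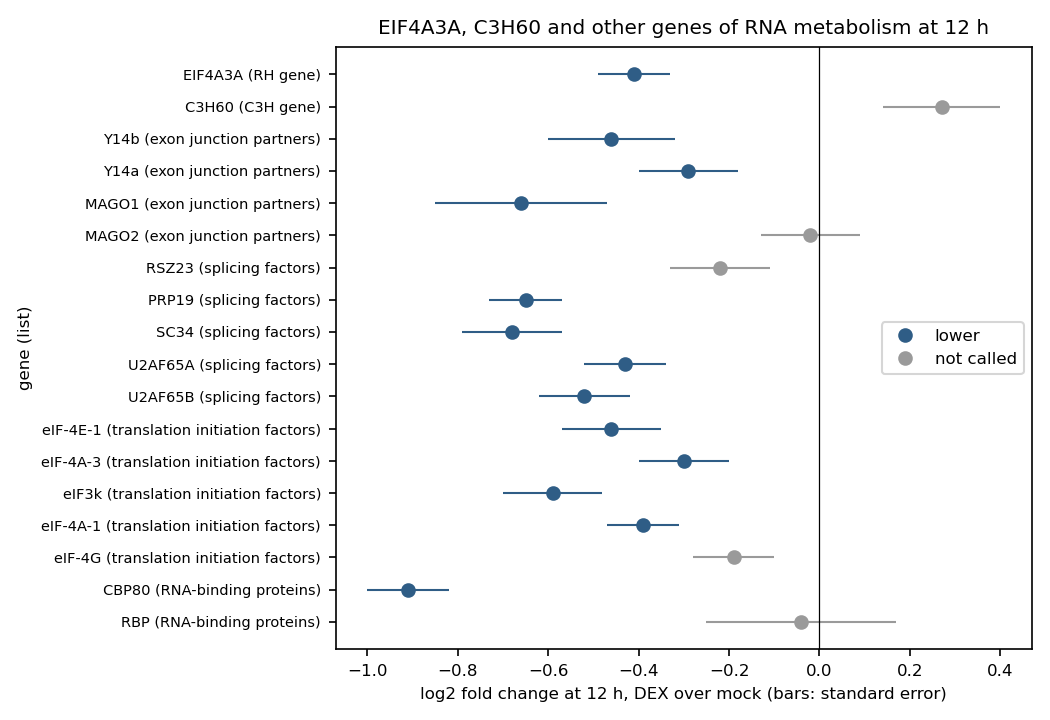
Log2 fold change of DEX over mock at 12 h (horizontal axis) for EIF4A3A, C3H60 and 16 genes of exon junction, splicing, translation initiation and RNA-binding lists; points are limma estimates over 3 arrays per group and bars are standard errors. EIF4A3A (-0.41) lies among the genes called lower (blue), CBP80 is the lowest at -0.91, and grey points did not pass an adjusted p of 0.05.

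Among the 38 *C3H* genes, DEX for 12 h was followed by rises of up to 5.19-fold and falls of up to 2.43-fold in single members, with no common direction. A total of 9 genes rose (23.7%) and 11 fell (28.9%), and 18 were not called. Over all 15140 genes 22.8% were called higher and 32.4% lower (55.1% either way, against 52.6% of the *C3H* genes). The *C3H* shares were therefore near those of all genes and are no result about the family. The median log2 fold change of the *C3H* genes was -0.08, and that of all genes was -0.06. With median centring or quantile normalization the *C3H* median turned to 0.01 or 0.05. In 24 of the 38 genes (63.2%) the DEX and mock arrays of 12 h did not overlap, compared with 64% of all genes. Of the 38 *C3H* genes, 3 rose and 3 fell at least 2-fold, where 9.51% of all genes rose and 11% fell by as much, so these counts too were near those of all genes. The plot of log2 fold changes shows every member at both times.

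**Figure D2:**
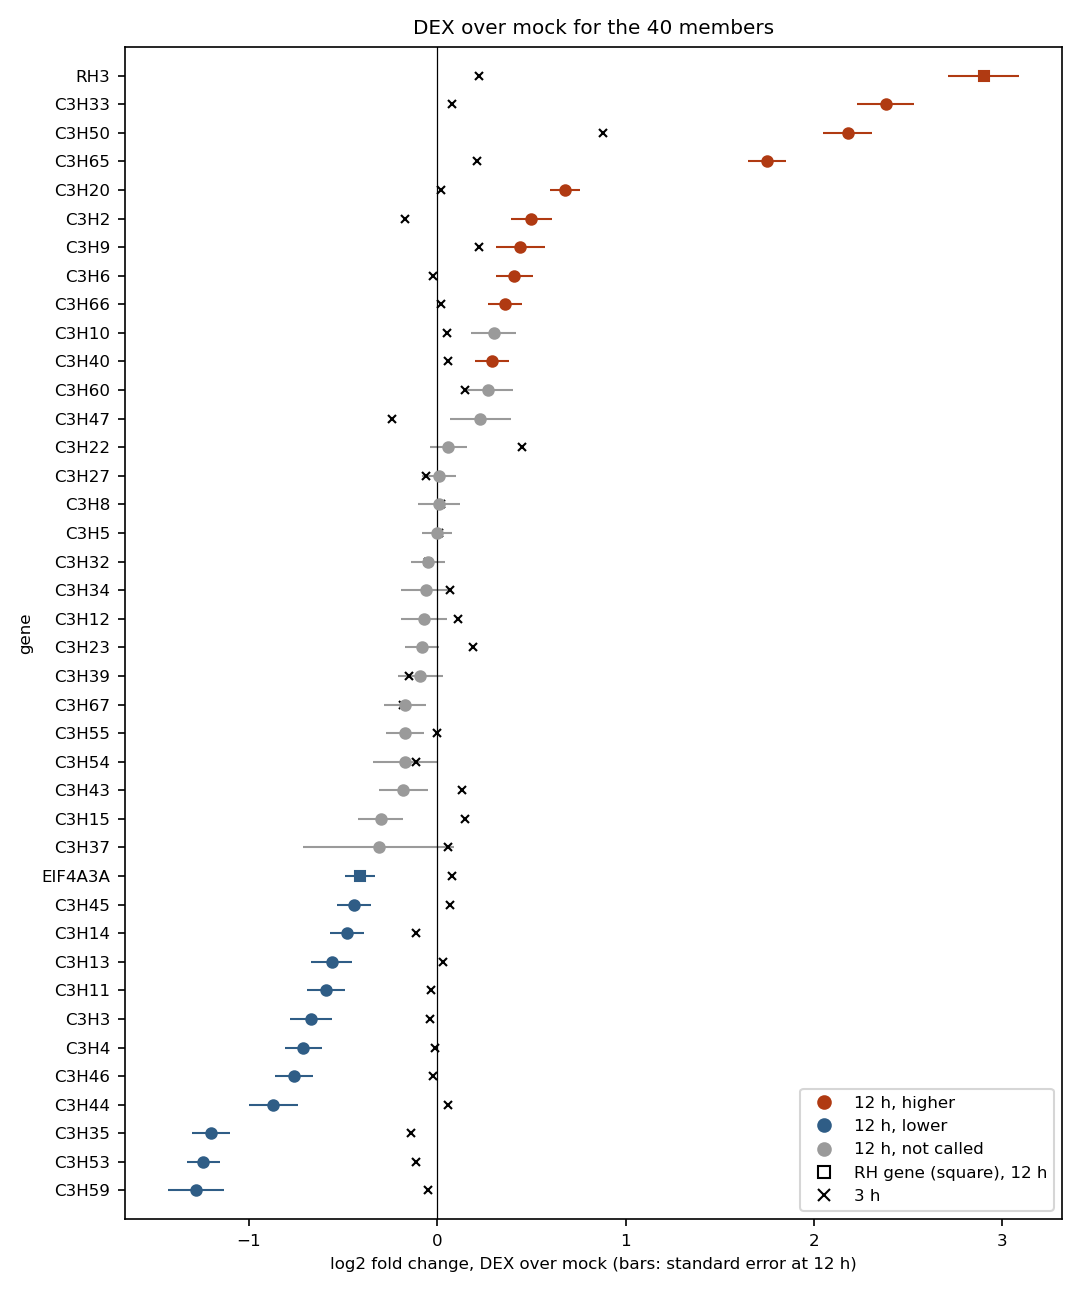
Log2 fold change of DEX over mock (horizontal axis) for the 40 genes with a row, in the order of their change at 12 h; coloured points are the 12 h estimates with standard errors (3 arrays per group), squares mark the RH genes and crosses are the 3 h estimates. At 12 h the values run from -1.28 (C3H59) to 2.90 (RH3), while at 3 h most crosses lie near 0 and C3H50 stands at 0.88.

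The 3 largest rises in the family were those of *C3H33*, *C3H50* and *C3H65*. *C3H33* (chromosome 5) gave 379, 508 and 373 with DEX and 93.4, 73.1 and 75.1 with mock at 12 h. Every DEX array was several times brighter than every mock array (2.38, SE 0.15, adjusted p = 3.31e-07). At 3 h it gave 79.3, 75.7 and 72.5 with DEX and 86, 66.4 and 65.1 with mock, which overlapped. *C3H65* (chromosome 12), one of the 2 brightest *C3H* rows, gave 3385, 3266 and 3408 with DEX and 979, 1049.9 and 969.9 with mock at 12 h. The groups were far apart relative to their spread (log2 fold change 1.75, SE 0.10, adjusted p = 1.37e-07, 3.36-fold). At 3 h its signals overlapped, at 1144, 1095 and 952 with DEX and 945, 980 and 836 with mock (0.21, SE 0.10, adjusted p = 0.857).

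*C3H50* (chromosome 7) was the only *C3H* gene called at both times. Its signal at 12 h was 826, 846 and 801 with DEX and 204, 171 and 173 with mock (2.18, SE 0.13, adjusted p = 2.35e-07, 4.52-fold). At 3 h it was 393, 266 and 302 with DEX and 165, 177 and 174 with mock. At each time all DEX signals exceeded all mock signals, and with DEX those of 12 h exceeded those of 3 h. The 3 h difference was 0.88 (SE 0.13, adjusted p = 0.0234). A fit restricted to the 3 h arrays ended that call (adjusted p = 0.301), as did a fit without moderation of the variances (0.079) and leaving out replicate 1, 2 or 3 of mock at 3 h (0.12, 0.0877 and 0.107) or replicate 3 of DEX at 3 h (0.0611).

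The smaller rises at 12 h included those of *C3H20* and *C3H2*, which have known roles in development. *C3H46*, also known from development, fell, as given below. *C3H20* is *Ehd4*, which promotes flowering in rice through *Ehd1*. It gave 1045, 1082 and 1063 with DEX and 639, 703 and 654 with mock at 12 h, 1.6-fold higher with no overlap (log2 fold change 0.68, SE 0.08, adjusted p = 4.75e-05). At 3 h *C3H20* gave 655, 714 and 662 with DEX and 656, 696 and 655 with mock, nearly the same values. *C3H2* is *OsDOS*, which delays leaf senescence in rice. Its signal was 284, 289 and 278 with DEX and 209, 195 and 199 with mock at 12 h (0.50, SE 0.11, adjusted p = 0.00335), and 157, 206 and 168 with DEX and 205, 207 and 181 with mock at 3 h. The groups were apart at 12 h and overlapped at 3 h.

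*C3H9* had a dim row, with 37.7, 34.1 and 34.2 in DEX arrays and 30.1, 26.5 and 22.0 in mock arrays of 12 h (0.44, SE 0.13, adjusted p = 0.0145). The arrays were apart by a small margin, and the call was lost without replicate 3 of mock at 12 h (adjusted p = 0.0636) or replicate 1 of DEX at 12 h (0.0522). At 3 h *C3H9* gave 32.1, 28.4 and 32.5 with DEX and 28.4, 24.0 and 27.8 with mock. The other members that rose at 12 h were *C3H6* (0.41), *C3H66* (0.36) and *C3H40* (0.29, adjusted p = 0.0255). For *C3H40* the call ended when the 12 h arrays were fitted alone (adjusted p = 0.0857) and without replicate 1 or 2 of mock or replicate 1 or 3 of DEX at 12 h (0.0526 to 0.106).

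The 3 largest falls were those of *C3H59*, *C3H53* and *C3H35*. *C3H59* (chromosome 9) gave 49.8, 34.6 and 50 with DEX and 111, 116 and 96.0 with mock at 12 h. No DEX array came near the mock arrays (log2 fold change -1.28, SE 0.15, adjusted p = 2.79e-05, 2.43-fold lower). At 3 h the signals overlapped, at 124, 111 and 127 with DEX and 137, 118 and 121 with mock. *C3H53* (chromosome 7) gave 503, 495 and 514 with DEX and 1078, 1308 and 1197 with mock at 12 h (-1.24, SE 0.09, adjusted p = 9.51e-07). *C3H35* (chromosome 5) gave 70.7, 84.0 and 66.4 with DEX and 178, 163 and 164 with mock at 12 h (-1.20, SE 0.10, adjusted p = 2.3e-06). Both genes were more than 2-fold lower with no overlap of arrays. At 3 h *C3H53* gave 1104, 1132 and 1192 with DEX and 1191, 1219 and 1284 with mock, and *C3H35* gave 157, 157 and 149 with DEX and 169, 174 and 166 with mock. The *C3H35* arrays of 3 h were apart, but neither gene was called at 3 h (-0.11 and -0.14).

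*C3H35* and *C3H53* each had a second, dimmer row that did not show the fall. The second row of *C3H35* gave 23.0, 25.1 and 21.7 with DEX and 21.7, 23.9 and 27.4 with mock at 12 h (-0.06, SE 0.16, adjusted p = 0.786). That of *C3H53* gave 51.0, 51.6 and 37.0 with DEX and 38.1, 51.4 and 50.5 with mock at 12 h (-0.01, SE 0.19, adjusted p = 0.981). These second rows lay at percentiles 28.2 and 42.4 of the mean signal of all rows, and over the 12 arrays, which share groups and scaling, they correlated with the first rows at 0.36 and -0.32. With the mean of both rows in place of the brighter one, the falls at 12 h were -0.63 for *C3H35* and -0.62 for *C3H53*, and both stayed called (adjusted p = 0.000746 and 0.0021).

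*C3H46* is *LIC*, a regulator of leaf and tiller angle in rice that acts in brassinosteroid signalling. Its signal was 67.5, 65.2 and 80.7 with DEX and 122, 118 and 119.8 with mock at 12 h, and 131, 123 and 119 with DEX and 137, 119.7 and 123 with mock at 3 h. The fall at 12 h, with all DEX arrays below all mock arrays, was 0.76 on the log2 scale (-0.76, SE 0.10, adjusted p = 9.53e-05). *C3H44* gave 51.5, 54.3 and 59.0 with DEX and 98.5, 94.5 and 108 with mock at 12 h (-0.87, SE 0.13, adjusted p = 0.000153), against 113, 96.0 and 132 with DEX and 115, 98.4 and 111 with mock at 3 h. *C3H4* gave 101, 84.4 and 91.5 with DEX and 161, 144 and 146 with mock at 12 h (-0.71, SE 0.10, adjusted p = 0.000104), against 162, 155 and 151 with DEX and 158, 149 and 163 with mock at 3 h. Both were apart at 12 h and overlapped at 3 h.

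*C3H14*, the other of the brightest pair of rows, gave 1303, 1221 and 1301 with DEX and 1731, 1693 and 1899.8 with mock at 12 h, a fall of 0.48 on the log2 scale (SE 0.09, adjusted p = 0.0012). At 3 h it gave 1749, 1519.7 and 1639.6 with DEX and 1795, 1808 and 1695 with mock, which overlapped. The other members that fell were *C3H3* (-0.67), *C3H11* (-0.59), *C3H13* (-0.56) and *C3H45* (-0.44). With quantile normalization the changes of *C3H13*, *C3H14* and *C3H45* were smaller by over 1.5 times, at -0.37, -0.31 and -0.29, and stayed called. The plot of signals on each array shows the *RH* genes and the 12 *C3H* genes with the largest rises and falls.

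**Figure D3:**
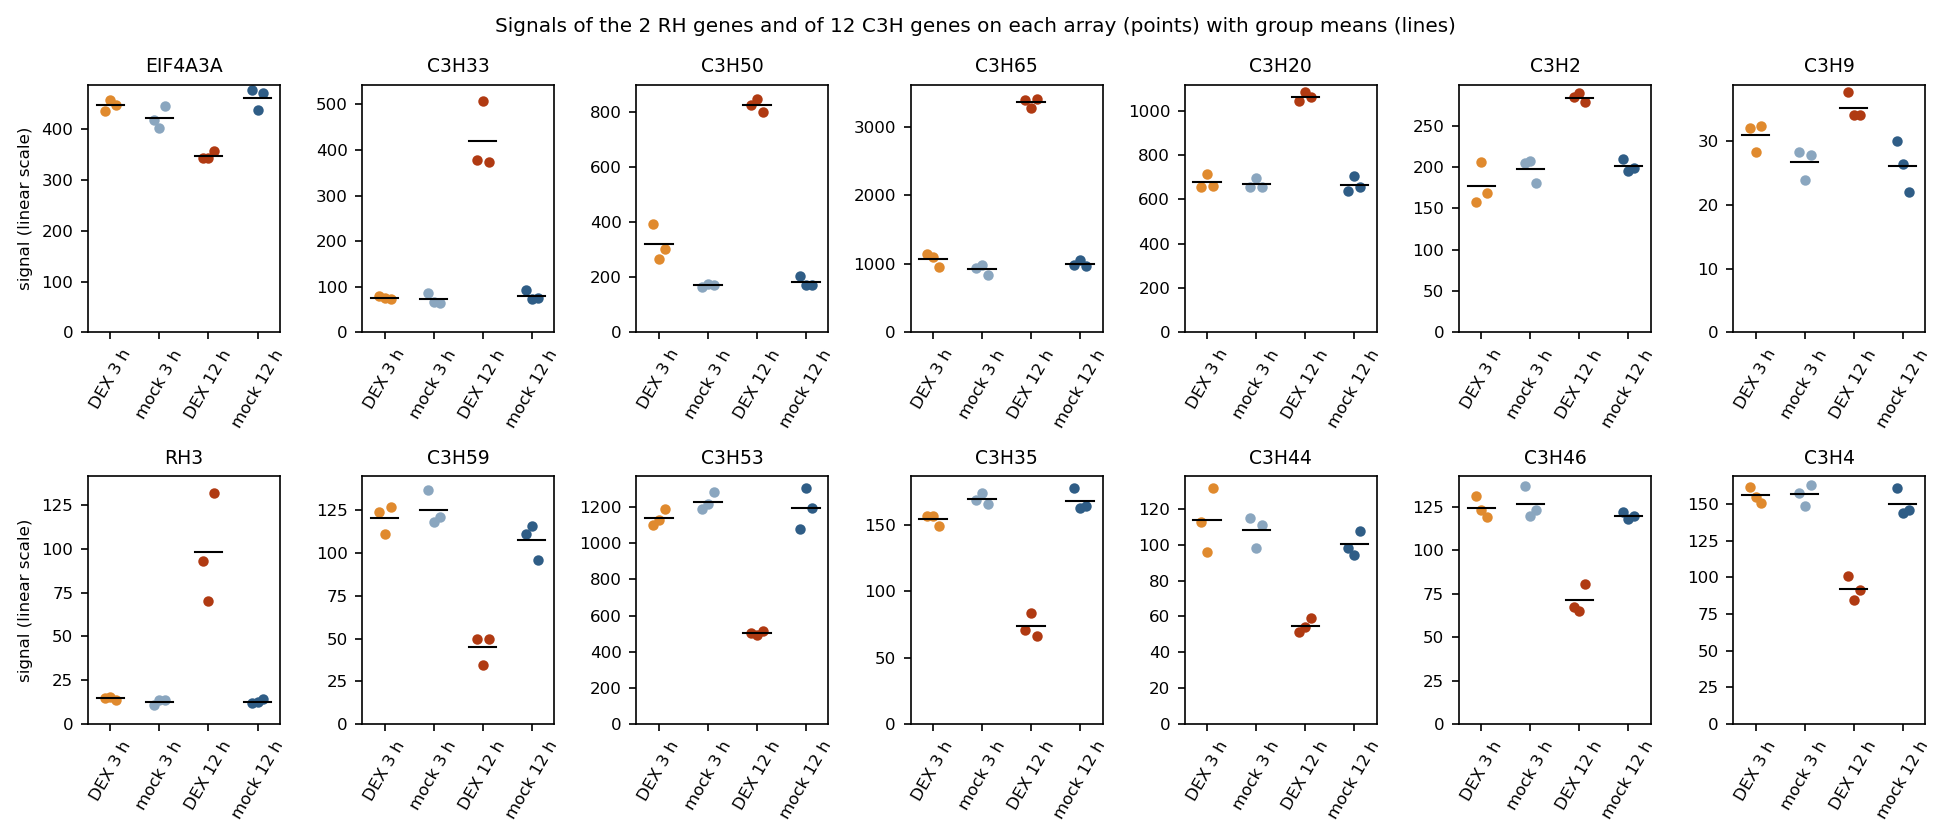
Signal on the linear scale (vertical axes, each from 0) on each of the 12 arrays for the 2 RH genes (left) and for the 6 largest rises (top) and falls (bottom) among C3H genes called at 12 h; points are arrays and black lines are group means of 3 arrays. The DEX arrays of 12 h stand apart from the mock arrays of 12 h in every panel, and in C3H50 the DEX arrays of 3 h (266 to 393) also lie above the mock arrays of 3 h (165 to 177).

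The 18 *C3H* genes not called at 12 h had log2 fold changes between -0.31 and 0.30. The pair closest to 0 was *C3H5* and *C3H8*. *C3H5* gave 577, 528 and 526 with DEX and 530.3, 555 and 548 with mock at 12 h (-0.00, SE 0.08, adjusted p = 0.979). *C3H8* gave 539.6, 648 and 640.4 with DEX and 563, 648 and 604 with mock at 12 h (0.01, SE 0.11, adjusted p = 0.966). In both genes the arrays overlapped, also at 3 h (547, 555 and 534 with DEX against 535, 552 and 538 with mock for *C3H5*, and 619.9, 697 and 673 with DEX against 606, 693 and 666 with mock for *C3H8*). *C3H12*, known for resistance of rice to bacterial blight, was not called (104, 126 and 123 with DEX and 119, 123 and 128 with mock at 12 h, log2 fold change -0.07, adjusted p = 0.68). *C3H10* and *C3H47*, known for drought tolerance when overexpressed in rice, were not called either (0.30, adjusted p = 0.0606, and 0.23, adjusted p = 0.3). *C3H10* was called higher with median centring (0.38, adjusted p = 0.0207), quantile normalization (0.34, 0.0346), a filter at the 25th percentile (0.0422) or 1 row per gene (0.0335), and without replicate 1 of mock at 12 h (0.44, 0.00493).

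*C3H60* is *U2AF35A*, the small subunit of U2AF and so the partner of the *U2AF65* proteins. Its arrays of 12 h did not overlap, at 55.2, 51.3 and 64.8 with DEX and 47.1, 46.0 and 47.9 with mock. The log2 fold change was 0.27 (SE 0.13) and was not called (adjusted p = 0.116). It was called under median centring (0.36, adjusted p = 0.0474) and quantile normalization (0.37, adjusted p = 0.0428). The large subunit genes *U2AF65A* and *U2AF65B* fell at this time, as given above. The difference in response between the subunits was not tested. *C3H37* had the widest spread within groups of these genes, with 178, 174 and 147 in DEX and 291, 167 and 177 in mock at 12 h and a standard error of 0.40, so a change of the size seen in *C3H20* was not detectable for it.

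At 3 h, *C3H50* was the only one of the 38 *C3H* genes that was called (2.63%), and it was higher with DEX. Over all genes 0.522% were called higher at 3 h and 0% lower, and 1 gene out of 38 says nothing about the family. Neither *RH* gene was called. The median log2 fold change of the *C3H* genes was 0.02 and the values lay between -0.24 and 0.88. The arrays were apart in 6 of the 38 genes (15.8%, against 12.2% of all genes). The second largest value at 3 h was that of *C3H22*, with 1055, 912 and 1111 in DEX and 782, 707 and 752 in mock (0.45, SE 0.10, adjusted p = 0.213). These arrays did not overlap. At 12 h *C3H22* gave 804, 749 and 699.7 with DEX and 669.7, 765 and 724 with mock, which overlapped. The change of its effect between the times was not called (-0.39, SE 0.15, adjusted p = 0.0671), although it was under several alternatives (adjusted p down to 0.0254 with a variance trend). *C3H22* lies next to *C3H23* on chromosome 3 with no gene between them. *C3H23* gave 306, 293 and 314 with DEX and 251, 263 and 289 with mock at 3 h (0.19, SE 0.09, adjusted p = 0.853), also apart and also not called.

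The difference between the DEX effect at 12 h and that at 3 h was tested in the same fit. It was called for 16 of the 38 *C3H* genes (42.1%, against 41.9% of all genes) and for both *RH* genes. Of the *C3H* genes 6 were upward (all genes 16.5%) and 10 downward (all genes 25.4%). The largest differences were those of *RH3* (2.68, SE 0.27, adjusted p = 2.98e-05), *C3H33* (2.30, SE 0.22, adjusted p = 1.91e-05) and *C3H65* (1.54, SE 0.14, adjusted p = 1.57e-05). *C3H50*, called at both times, differed too (1.3, SE 0.19, adjusted p = 0.000366). *C3H59* (-1.23, SE 0.21, adjusted p = 0.00101) and *C3H53* (-1.13, SE 0.13, adjusted p = 7.37e-05) led the downward differences, and with the mean of both rows *C3H53* was no longer called (-0.52, adjusted p = 0.0513). For *C3H35* the difference was -1.06 with its brighter row and -0.54 (adjusted p = 0.0246) with the mean of both rows. *EIF4A3A* had a difference of -0.49 (SE 0.12, adjusted p = 0.00847). For *C3H9*, *C3H40*, *C3H66* and *C3H14*, called at 12 h and not at 3 h, the difference itself did not pass (adjusted p = 0.386, 0.228, 0.0706 and 0.0528). It did pass for *C3H66* and *C3H14* under several alternatives (adjusted p down to 0.0247 and 0.0104, both with a variance trend).

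In mock seedlings, no *C3H* or *RH* gene was called between 12 h and 3 h in limma, as was the case for all rows (0% called). At an unadjusted p under 0.05 there were 3 of 38 *C3H* genes, *C3H6*, *C3H43* and *C3H60*, and 9.1% of all genes passed that limit. The lowest adjusted p was that of *C3H43*, with 52.8, 48.1 and 43.9 in mock at 12 h and 32.8, 35.6 and 30.6 in mock at 3 h (0.55, SE 0.13, adjusted p = 0.253). The *C3H43* arrays of 12 h were all above those of 3 h. Arrays were apart in 8 of 38 *C3H* genes (21.1%, against 20.8% of all genes). *EIF4A3A* (0.13, SE 0.08, adjusted p = 0.616) and *RH3* (0.02, SE 0.19, adjusted p = 0.984) overlapped between the mock groups.

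The levels of the 38 *C3H* genes were also described array by array. Their median log2 signal was 7.18 to 7.28 in the DEX arrays of 12 h and 7.40 to 7.59 in mock arrays at 12 h, and the groups did not overlap. At 3 h it was 7.35 to 7.51 with DEX and 7.38 to 7.47 with mock. The median of all 15140 genes was also lower in the DEX arrays of 12 h, at 6.34 to 6.43 against 6.46 to 6.51 in mock. The interquartile range of the *C3H* genes was 3.08 to 3.30 log2 units in DEX arrays and 2.40 to 2.57 in mock arrays at 12 h, and 2.39 to 2.67 with DEX and 2.41 to 2.57 with mock at 3 h. The *C3H* signals were therefore spread more widely within the DEX arrays of 12 h than within any other array. Over all genes the range at 12 h was 2.76 to 2.87 in DEX and 2.87 to 2.92 in mock, without such a widening. No test was run on these summaries, since the genes of an array are not replicates. The range of 38 genes rests on few members near its quartiles, and no other set of that size was compared.

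**Figure D4:**
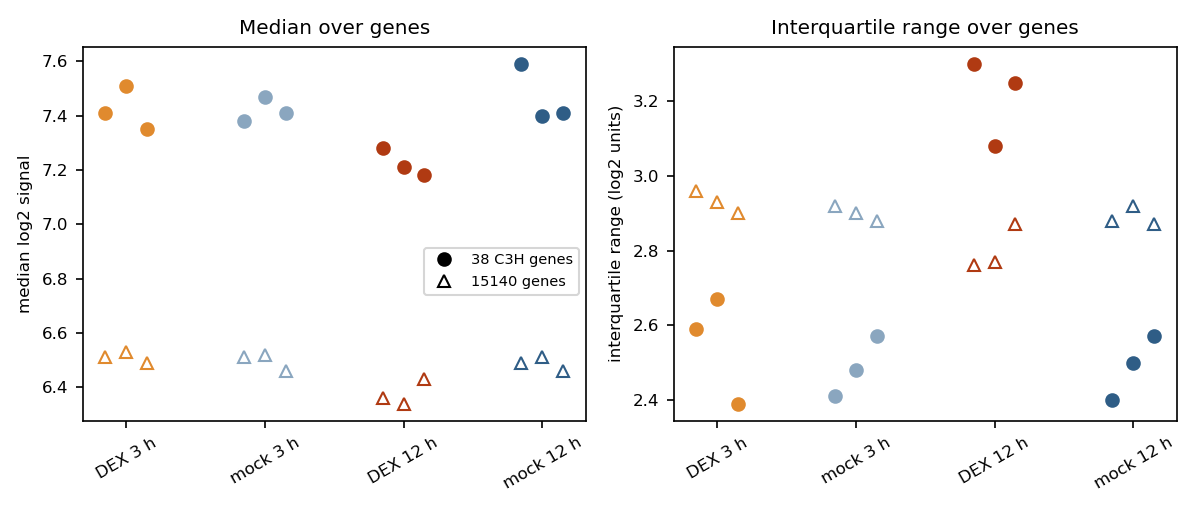
Median (left) and interquartile range (right) of the log2 signal on each array for the 38 C3H genes (filled circles) and for all 15140 genes with a row (open triangles), by group with 3 arrays each. The C3H range is 3.08 to 3.30 in the DEX arrays of 12 h and at most 2.67 in the other arrays.

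The median annotated gene span was 3557 bases for genes that rose, 4313 bases for genes that fell and 4203.5 bases for the others. The spans overlapped widely, at 1799 to 8833, 2144 to 9005 and 977 to 8243 bases, and no difference in span was tested. The 38 genes lay on 10 chromosomes, 10 of them on chromosome 1. There *C3H4*, *C3H5* and *C3H6* were near neighbours, with 3 genes between the first pair and 4 between the second, and at 12 h *C3H4* fell (-0.71), *C3H5* was not called (-0.00, adjusted p = 0.979) and *C3H6* rose (0.41, SE 0.10, adjusted p = 0.00462). The closest pair, *C3H22* and *C3H23*, had 12 h values of 0.06 (SE 0.10) and -0.08 (SE 0.09), neither of them called.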

How the data were processed

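RNA of shoot apices was hybridized to Affymetrix rice gene arrays of 1 colour, with 3 biological replicates in each of 4 groups. The authors normalized the arrays in Affymetrix Expression Console 1.3, whose output as deposited was taken to be log2 signal, judging by its range. No further scaling was applied in the main comparison, and signals on the linear scale are powers of 2 of the deposited values. The p-values rest on the spread between replicates, pooled over the 4 groups and moderated across all rows. Each group mean rests on 3 arrays.

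Of 54922 rows, 15829 were paired with a single gene, 440 with several and 38653 with none. Names came from the platform annotation and a RefSeq gene table, used only for names, gene order and gene spans. Members and lists were chosen with earlier results of these data known. Lists were taken by symbol and synonym, because the tables hold no descriptions, so lists of further helicases and zinc finger genes could not be formed, and genes caught only by their letters were left out. No gene of the RNA decay list and none of *OSH6*, *OSH43*, *RBCS* and *YAB5* had a usable row.

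Moderated limma fits (limma 3.58.1 in R 4.3.3) took all 12 arrays with a mean per group, and Benjamini-Hochberg adjustment covered every row. DEX was compared with mock at each time, the 12 h effect with the 3 h effect, and the mock groups of 12 h and 3 h with each other. Values on every array were given for members called at 3 h or largest in the difference of effects, for the 6 largest rises and falls at 12 h, for the pair closest to 0 and for the brightest pair, while any further member shown array by array was picked with its values known. The fit was tested on simulated data. Alternatives tried were quantile normalization, median centring, leaving out dim rows by 2 limits, fits of 6 arrays, a variance trend, no moderation, the mean of a gene's rows, 1 row per gene, identical rows counted once, a limit of 2-fold with unadjusted p under 0.01, an adjusted p under 0.01, a block on replicate number, and each array left out in turn. Tables were handled in Python 3.11.15 with NumPy 2.4.6 and pandas 2.3.3, and plots were drawn with matplotlib 3.10.9.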

Additional observations from a re-analysis of the deposited data

Results flagged for a closer look

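The change in the DEX effect between the times passed the limma test (adjusted p under 0.05) for 18 of the 40 genes, and each value here is the log2 effect at 12 h minus that at 3 h. It was positive for *RH3* (2.68), *C3H33* (2.30), *C3H65* (1.54), *C3H50* (1.3), *C3H2* (0.67), *C3H20* (0.66) and *C3H6* (0.43). It was negative for *C3H59* (-1.23), *C3H53* (-1.13), *C3H35* (-1.06), *C3H44* (-0.93), *C3H46* (-0.74), *C3H4* (-0.70), *C3H3* (-0.63), *C3H13* (-0.59), *C3H11* (-0.56), *C3H45* (-0.51) and *EIF4A3A* (-0.49). The share called among all genes was 41.9%. The call of *C3H6* was lost without any 1 of 7 arrays (adjusted p up to 0.0805), and that of *C3H13* under quantile normalization (adjusted p = 0.0636). With the mean of both rows the value of *C3H35* was -0.54 (adjusted p = 0.0246) and that of *C3H53* was -0.52 (adjusted p = 0.0513).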

How the results depend on the processing

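Of the 22 members called at 12 h, 20 kept their call under all alternatives but the limit of 2-fold with unadjusted p under 0.01. *C3H9* and *C3H40* lost it under at least 1 alternative, and *C3H10*, *C3H15* and *C3H60* gained one under some. The row of *RH3* lay under both limits for dim rows, so its calls were not tried there. No called value changed sign under any alternative. By the 2-fold limit 3 *C3H* genes were higher and 3 lower at 12 h, 3 and 3 in the difference of effects and 0 higher at 3 h (all genes 9.5% and 11%, 8.72% and 10.4%, and 0.35%), and *EIF4A3A* (-0.41 at 12 h, -0.49 in the difference) was not called. The *C3H* median at 12 h was 0.01 with median centring and 0.05 with quantile normalization, so its sign depends on the scaling, and the median of all rows was -0.06, 0.02 and 0.03 in the main, centred and quantile settings. In the difference of effects it was 0.03 with quantile normalization. With rows under the median left out it was -0.18, a median over only the brighter members, so it does not compare the same genes. At 3 h, 0 *C3H* genes were called higher in the fit of 6 arrays, without moderation or at an adjusted p under 0.01, and 2 with a variance trend (*C3H22*, adjusted p = 0.0483). In the difference of effects 13 of 18 calls were kept under all but the 2-fold limit, and *C3H14*, *C3H15*, *C3H22*, *C3H23* and *C3H66* gained a call under at least 1 alternative.

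Leaving out each array in turn gave 7 to 9 *C3H* genes higher and 11 to 11 lower at 12 h (median -0.11 to -0.06), 0 to 1 higher and 0 lower at 3 h (median 0 to 0.03), 5 to 7 higher and 10 to 13 lower in the difference (median -0.13 to -0.03), and none between mock groups (median -0.07 to -0.02). *EIF4A3A* ranged over -0.45 to -0.38 at 12 h, 0.05 to 0.12 at 3 h, -0.53 to -0.46 in the difference and 0.10 to 0.17 between mock groups, and *RH3* over 2.66 to 3.12, 0.11 to 0.27, 2.45 to 2.90 and -0.09 to 0.08 in the same 4 comparisons. The call of *Y14a* at 12 h was lost without any of 10 arrays (up to adjusted p = 0.131), that of *MAGO1* without replicate 3 of mock (0.0596) or replicate 2 of DEX at 12 h (0.0519), that of *Y14b* without replicate 1 or 2 of mock or 1 or 3 of DEX at 12 h (0.0541 to 0.0735), and that of *eIF-4A-3* without replicate 1 or 2 of mock or 2 of DEX at 12 h (0.0914 to 0.104).

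A replicate block in the fit left 9 *C3H* genes higher and 11 lower at 12 h, 1 and 0 at 3 h, and 6 and 10 in the difference, and *C3H50* at 3 h had an adjusted p of 0.045. Deviations of same-numbered arrays correlated at -0.05, 0.17 and 0.08 at 3 h and at -0.02, -0.02 and -0.04 at 12 h. The labels do not say whether same-numbered samples were handled together, and these low correlations cannot decide it. The causes of these changes were not tested. With 3 arrays per group, dim rows such as those of *RH3* and *C3H9* limit the precision.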
